A study of Mus musculus with 12 samples.

Results

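The trophectoderm is the outer epithelium of the blastocyst, the first tissue to separate from the embryo proper and the source of the placenta. Its cells carry simple epithelial keratins, filament proteins that assemble only as pairs of a type II chain (Krt7, Krt8) with a type I chain (Krt18, Krt19), and its identity depends on transcription factors such as Cdx2, Gata3, Eomes and Tfap2c. Embryonic stem (ES) cells derive from the inner cell mass and hold this programme low, in part through Pou5f1. The genes described here are 4 of these keratins and 6 transcription factors (Hand1, Cdx2, Eomes, Tfap2c, Gata2 and Gata3), found by their symbols among the 57180 genes listed in each deposited table; each of the 10 symbols matched a single gene, and all 10 passed the filter on low counts.

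Total RNA of C57BL/6 mouse ES cells was sequenced in 12 libraries, 3 for each of 4 genotypes labelled WT, MP8, Tas and Pph. WT is wild type. The other 3 lack a subunit of the HUSH complex, a silencer of retroelements and other genes that acts through a repressive histone mark: MPP8 (gene Mphosph8) in MP8, TASOR in Tas and periphilin (Pphln1) in Pph. No drug, time point or transgene is given, and whether the 3 libraries of a genotype came from separate clones or cultures is not stated, so a p-value measures the spread between these libraries alone.

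Library totals ranged from 17918770 to 21962079 estimated counts, and 16840 genes were tested. The deleted genes were low where the labels say so: Mphosph8 stood at 0.705, 0.165 and 0.0494 CPM (counts-per-million, on effective library sizes) in MP8 against 110.1 to 117 CPM in WT, Tasor at 30.7 to 33.1 in Tas against 125 to 130 in WT, and Pphln1 at 19.8 to 23.1 in Pph against 66.7 to 71.9 in WT. ES cell markers were present in each group. The summed level of 10 of them was 2526 to 2615 CPM in WT, 1846 to 1873 in MP8, 2534 to 2567 in Tas and 1906 to 2006 in Pph. Pou5f1 was the highest of them in each group, and single markers moved. Against WT, 10 of 10 were called lower in MP8, 9 in Pph and 7 in Tas (32.2%, 25.7% and 25.5% of all tested genes). Klf2 and Zfp42 were higher in Tas. Klf4 fell from a mean of 35.2 CPM in WT to 5.64, 4.63 and 7.25 in MP8, Tas and Pph. Dppa3 fell from 32.8 CPM to 6.82, 12.3 and 10.9, and Tfcp2l1 from 127 to 21.7, 76.2 and 70.1. Pou5f1, which defines the pluripotent state, stood at 713 CPM in Pph against 946 CPM in WT. In bulk RNA, a change in the number of cells that express a gene and a change in the RNA per cell cannot be told apart.

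Promoter sequences of RefSeq (build GRCm38.p6, older than the GRCm39 build that the submitters' processing notes name) matched 7 of the 10 genes; Krt19, Hand1 and Tfap2c had no entry. The 250 bases before the annotated start are shown for 3 keratin genes and for Cdx2, to set the 3 keratin genes of chromosome 15 beside the factor that specifies trophectoderm. Krt8 and Krt18 lie next to each other on chromosome 15, on opposite strands and head to head, and no other protein-coding gene lies between them in the GENCODE annotation. Krt7 is on the same chromosome, on the plus strand. Capitals mark matches, on either strand, to any of 6 short motifs, of which none overlapped another match in these windows: the TATA box TATAAA, the AP-2 motif GCCNNNGGC, the GATA motif AGATAA, the TEAD motif GGAATG, the CDX motif TTTATNG and the AP-1 motif TGANTCA.
Krt7, chr15:101412153-101412402, plus strand: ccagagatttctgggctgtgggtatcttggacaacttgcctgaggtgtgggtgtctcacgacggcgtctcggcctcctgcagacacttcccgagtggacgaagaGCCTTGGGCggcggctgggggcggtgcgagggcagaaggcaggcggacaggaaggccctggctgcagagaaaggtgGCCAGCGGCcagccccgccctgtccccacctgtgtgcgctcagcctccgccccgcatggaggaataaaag
Krt8, chr15:102004343-102004592, minus strand: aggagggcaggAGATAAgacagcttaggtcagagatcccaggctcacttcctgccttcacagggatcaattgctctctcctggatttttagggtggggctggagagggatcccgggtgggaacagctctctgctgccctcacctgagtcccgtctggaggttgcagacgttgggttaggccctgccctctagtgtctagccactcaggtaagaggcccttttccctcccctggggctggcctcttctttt
Krt18, chr15:102027966-102028215, plus strand: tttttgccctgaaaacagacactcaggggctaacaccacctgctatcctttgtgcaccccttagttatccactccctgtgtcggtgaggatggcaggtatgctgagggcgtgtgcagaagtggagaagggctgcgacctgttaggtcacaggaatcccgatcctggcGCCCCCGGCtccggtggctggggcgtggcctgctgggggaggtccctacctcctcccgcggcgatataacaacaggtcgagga
Cdx2, chr5:147307250-147307499, minus strand: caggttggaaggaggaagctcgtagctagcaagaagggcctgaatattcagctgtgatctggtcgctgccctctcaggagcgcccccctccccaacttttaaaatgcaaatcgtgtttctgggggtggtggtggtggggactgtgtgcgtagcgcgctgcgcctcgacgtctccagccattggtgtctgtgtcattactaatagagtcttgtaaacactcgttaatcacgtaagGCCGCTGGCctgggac

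The AP-2 motif, the letters bound by factors of the Tfap2c family, occurred in 5 of the 8 windows that belong to these genes (Krt7, Krt18, Cdx2, 1 of the 2 Gata2 starts, and Gata3), against 13.7% of 32851 windows of the same length. The GATA motif was in the Krt8 window and in 9.99% of all windows, and the TEAD motif, bound by the Hippo pathway factors, was in the Gata2 window and in 12.6%. The TATA box (12.4% of all windows), the CDX motif (9.81%) and the AP-1 motif (6.75%) were in none of the 8. These matches describe letters in a window and were not tested as binding sites.

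The ubiquitous partners of simple epithelia, Krt8 and Krt18, moved in step. Krt8 (ENSMUSG00000049382), the type II chain, stood at 45.7, 49.1 and 47.9 CPM in the WT libraries, 55.3, 55.4 and 54.2 in MP8, 35.2, 34.4 and 33.2 in Tas, and 429, 463 and 429 in Pph. No group overlapped another, in the order Pph, MP8, WT and Tas. Krt18 (ENSMUSG00000023043), its type I partner, stood at 33.4, 32.5 and 32.5 CPM in WT, 36.8, 39.5 and 36.9 in MP8, 22.1, 22.8 and 23.2 in Tas, and 298, 292 and 287 in Pph, with the same order and again no overlap. Against WT, Krt8 rose 9.26-fold in Pph (log2 fold change 3.21 ± 0.04, SE; edgeR quasi-likelihood test, Benjamini-Hochberg adjusted p = 3.72e-31) and rose by 0.21 ± 0.04 on the log2 scale in MP8 (adjusted p = 0.000160), while it fell by 0.48 ± 0.05 in Tas (adjusted p = 5.45e-10). Krt18 rose 8.91-fold in Pph, rose by 0.20 ± 0.05 in MP8 and fell by 0.53 ± 0.05 in Tas, with adjusted p of 4.95e-31, 0.000469 and 2.63e-10.

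**Figure D1:**
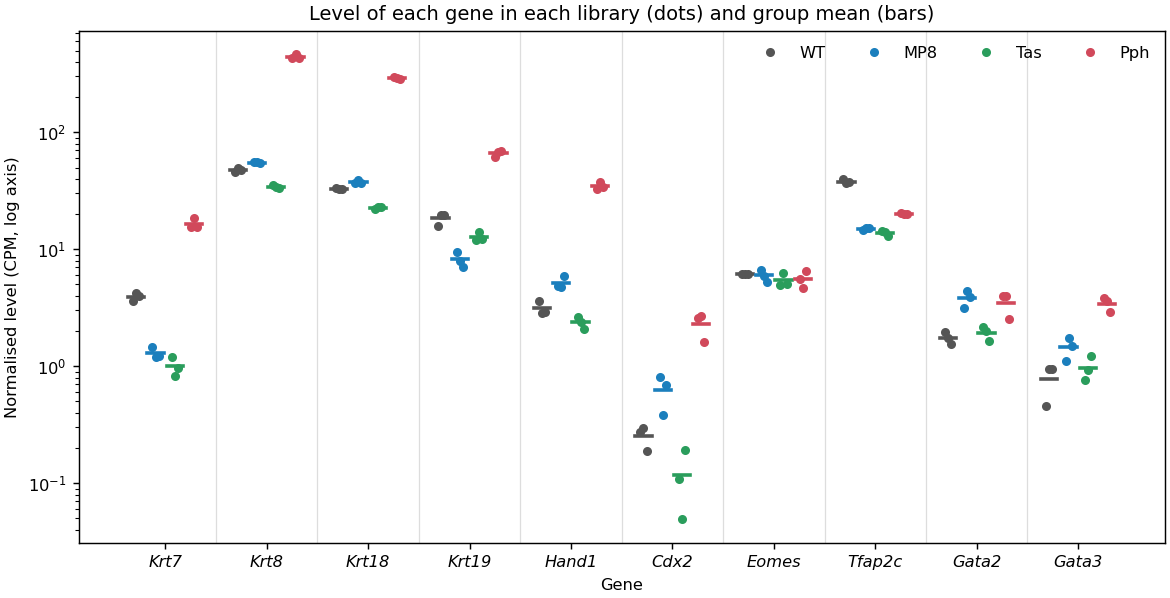
Level of each of the 10 genes in each of the 12 libraries, in CPM on a log axis; dots are libraries, short bars are group means, and colours are the 4 genotypes. The Pph libraries of Krt8 (429 to 463 CPM) and Krt18 (287 to 298 CPM) lie above all others, the 3 null groups of Tfap2c lie below WT, and the 4 groups of Eomes overlap.

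Levels per transcript length were compared in the deposited transcripts-per-million (TPM). Krt8 and Krt18 were the highest of the 10 genes in each group on this scale and were nearly equal, 36.9 ± 1.87 and 36.9 ± 0.812 TPM in WT (SD, n = 3) and 380 ± 10.9 and 367 ± 9.89 TPM in Pph. For WT, MP8, Tas and Pph the ratio of Krt8 to Krt18 TPM was 1.00 ± 0.0496, 1.00 ± 0.0347, 1.04 ± 0.0544 and 1.04 ± 0.0490, and the libraries of all groups overlapped between 0.945 and 1.09. Of the genes with a TPM above 0, 86.7% lay below Krt8 in WT, 82.8% in Tas, 88.4% in MP8 and 98.8% in Pph.

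The other keratins of the trophectoderm, Krt7 and Krt19, joined Krt8 and Krt18 in Pph and in Tas but parted from them in MP8. Krt7 (ENSMUSG00000023039), a type II keratin of ducts and trophoblast, stood at 3.58, 4.26 and 3.95 CPM in WT, 1.46, 1.21 and 1.23 in MP8, 1.19, 0.833 and 0.971 in Tas, and 15.7, 18.5 and 15.6 in Pph. It rose 4.22-fold in Pph (log2 2.08 ± 0.12, adjusted p = 4.20e-15), and it fell by 1.59 ± 0.18 in MP8 (adjusted p = 5.15e-09) and by 1.98 ± 0.19 in Tas (adjusted p = 2.44e-10). The MP8 and Tas libraries of Krt7 did not overlap, but their difference of 0.39 ± 0.24 did not pass the test (adjusted p = 0.170). Krt19 (ENSMUSG00000020911), the smallest type I keratin, stood at 15.9, 19.8 and 19.8 CPM in WT, 9.56, 7.92 and 7.11 in MP8, 12.1, 14.1 and 12.2 in Tas, and 61.8, 68.5 and 68.6 in Pph. It rose 3.59-fold in Pph (log2 1.85 ± 0.08, adjusted p = 8.99e-15), fell by 0.53 ± 0.10 in Tas (adjusted p = 0.000109) and fell by 1.17 ± 0.11 in MP8 (adjusted p = 2.52e-09), where it was also lower than in Tas (difference -0.64 ± 0.12, adjusted p = 4.97e-05).

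The make-up of the keratin pool differed between WT and MP8, whose totals overlapped. The 4 keratins summed to 93.2 to 100.1 TPM in WT and 98.4 to 103 TPM in MP8, yet Krt19 made up 22.3% ± 1.63 of this sum in WT and 9.74% ± 1.29 in MP8. In Tas the sum was 68.4 to 72.5 TPM with a Krt19 share of 22.7% ± 2.41, and in Pph it was 833 to 852 TPM with a share of 10.4% ± 0.918. Krt7 held 1.40% of the sum in WT and between 0.472% and 0.754% in the null groups.

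**Figure D2:**
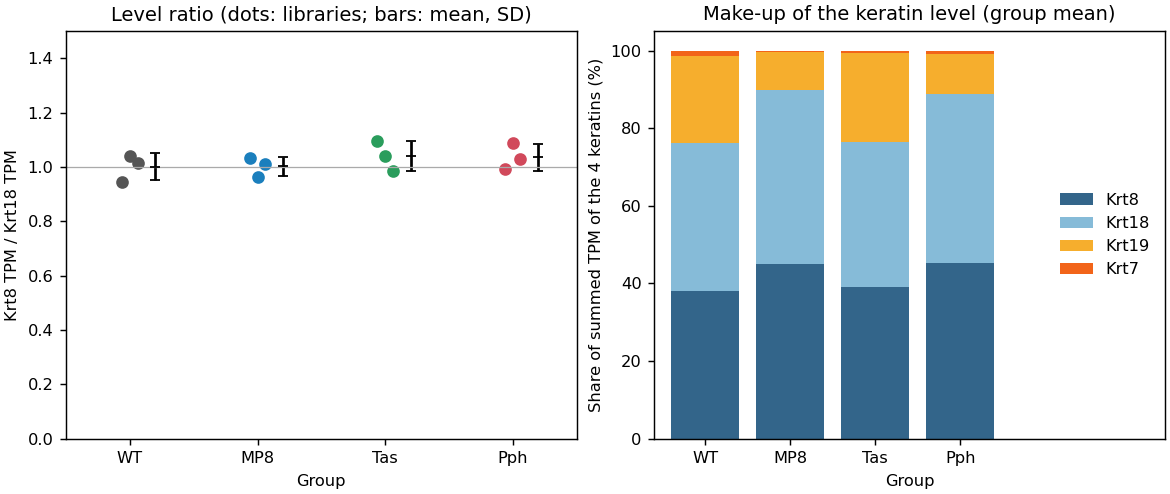
Left, the ratio of Krt8 to Krt18 TPM in each library (dots) with group mean and SD (black), on an axis from 0; the libraries lie between 0.945 and 1.09 in all groups. Right, the mean share of each keratin in the summed TPM of the 4 keratins, in percent; Krt19 holds 22.3% in WT and 22.7% in Tas against 9.74% in MP8 and 10.4% in Pph.

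Hand1 (ENSMUSG00000037335), a basic helix-loop-helix factor of trophoblast giant cells and of early mesoderm, had the largest fold change of the 10 genes in Pph. It stood at 3.63, 2.83 and 2.92 CPM in WT, 4.83, 4.78 and 5.87 in MP8, 2.65, 2.40 and 2.09 in Tas, and 32.996, 37.3 and 33.9 in Pph, so that no group overlapped another. Hand1 rose 11.1-fold in Pph (log2 3.47 ± 0.11, adjusted p = 3.94e-22) and rose by 0.72 ± 0.14 in MP8 (adjusted p = 3.71e-05). Its fall of 0.40 ± 0.16 in Tas was close to the threshold (adjusted p = 0.0367) and was lost under 7 of the 20 other settings, with adjusted p of 0.0182 to 0.221 over them; without WT replicate 1 it was 0.27, and without Tas replicate 2 or 3 it did not pass.

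Cdx2 (ENSMUSG00000029646), the homeobox factor that specifies trophectoderm, was the lowest of the 10 genes in each group. The WT libraries held 4 to 6 counts, MP8 7 to 16, Tas 1 to 4 and Pph 32 to 54, which correspond to 0.276, 0.297 and 0.188 CPM in WT, 0.805, 0.385 and 0.691 in MP8, 0.108, 0.0490 and 0.194 in Tas, and 2.61, 2.70 and 1.62 in Pph. Only the Pph libraries all lay past the filter's cutoff for a library, so Cdx2 was tested at all because of the group in which it is high. It rose 8.92-fold in Pph (log2 3.16 ± 0.38, adjusted p = 2.83e-08), and the summed counts of 134 and 16 gave a level ratio of 9.11 with an exact 95% counting interval of 5.41 to 16.4. The rise in MP8 (1.30 ± 0.46, adjusted p = 0.0138) did not pass without WT replicate 3 or without MP8 replicate 1. Tas differed from WT by -1.07 ± 0.65 (adjusted p = 0.157), and the groups overlapped. Even in Pph, its 1.69 ± 0.430 TPM lay above only 50.1% of the genes with a TPM above 0.

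The GATA factors Gata2 and Gata3, which drive trophoblast genes and are also known from blood, rose in Pph and MP8. Gata3 (ENSMUSG00000015619) stood at 0.459, 0.942 and 0.941 CPM in WT, 1.11, 1.76 and 1.48 in MP8, 0.758, 0.931 and 1.21 in Tas, and 3.81, 3.601 and 2.89 in Pph. It rose 4.39-fold in Pph (log2 2.13 ± 0.27, adjusted p = 5.84e-08) and by 0.89 ± 0.30 in MP8 (adjusted p = 0.0104). The MP8 call did not pass without WT replicate 1, whose Gata3 level was the lowest, or without MP8 replicate 2. The Tas and WT libraries of Gata3 overlapped (difference 0.32 ± 0.32, adjusted p = 0.411).

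Gata2 (ENSMUSG00000015053) stood at 1.98, 1.74 and 1.55 CPM in WT, 3.17, 4.40 and 3.90 in MP8, 2.16, 2.01 and 1.65 in Tas, and 3.97, 4.001 and 2.54 in Pph. It rose 2.17-fold in MP8 (log2 1.12 ± 0.21, adjusted p = 2.40e-05) and 1.99-fold in Pph (0.99 ± 0.21, adjusted p = 0.000154), and MP8 and Pph overlapped (difference 0.13 ± 0.19, adjusted p = 0.586). In Tas the difference from WT was 0.14 ± 0.23 (adjusted p = 0.627). The deposited TPM of Gata2 followed its counts poorly: in Pph they were 1.97, 5.49 and 1.62 TPM, and the changes of Gata2 in MP8 and Pph did not pass on the log2(TPM + 1) scale (adjusted p of 0.101 and 0.0788).

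Tfap2c (ENSMUSG00000028640), an AP-2 factor of trophoblast that is also active in ES cells and primordial germ cells, was the only one of the 10 genes called lower in Pph. It stood at 39.5, 36.7 and 37.4 CPM in WT, 14.5, 15.1 and 15.3 in MP8, 14.4, 14.2 and 13.1 in Tas, and 20.4, 19.9 and 20.1 in Pph, each null group lying below WT. Tfap2c fell by 1.34 ± 0.07 in MP8 (adjusted p = 3.18e-17), by 1.45 ± 0.07 in Tas (adjusted p = 8.26e-18) and by 0.91 ± 0.06 in Pph (adjusted p = 2.20e-13). Eomes (ENSMUSG00000032446), a T-box factor of trophoblast stem cells and of the primitive streak, stood at 6.16, 6.10 and 6.12 CPM in WT, 6.69, 5.94 and 5.28 in MP8, 4.92, 6.32 and 5.001 in Tas, and 5.54, 4.70 and 6.55 in Pph. The Eomes libraries of all 4 groups overlapped and none of the 6 comparisons passed; in Pph against WT the difference was -0.13 with an approximate 95% interval of -0.40 to 0.14.

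**Figure D3:**
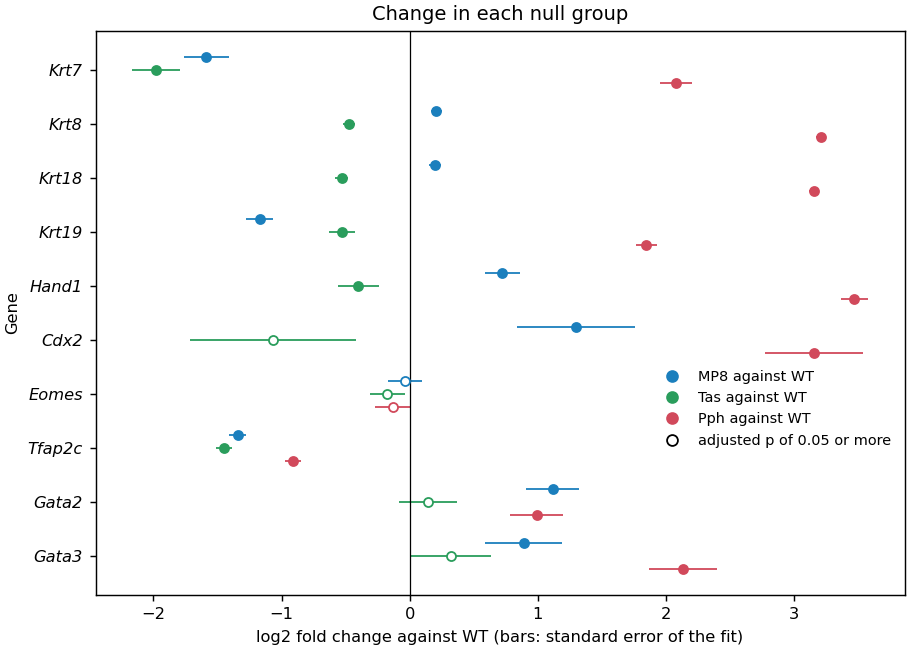
Log2 fold change of the 10 genes against WT in MP8, Tas and Pph, with the standard error of the fit as bars; open circles did not pass an adjusted p of 0.05. Krt8 is at 3.21 in Pph, 0.21 in MP8 and -0.48 in Tas, while Tfap2c is below 0 in all 3 null groups.

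In Pph, 8 of the 10 genes were called higher and 1 lower than WT, where 30.6% of all tested genes were called higher and 25.7% lower; the median log2 fold change of the 10 was 2.11, and that of all tested genes was 0.04. Cdx2 passed the filter through Pph, the group in which it is high; of the other 9 genes, 7 were called higher and 1 lower (median 2.08). In Tas, 0 were called higher and 6 lower (26.2% and 25.5% of all genes; median -0.50 against -0.01), and leaving out single libraries gave 5 or 6. In MP8, 6 were called higher and 3 lower (30.0% and 32.2%; median 0.20 against -0.02). The comparisons with WT share the WT libraries. Krt7, Krt8, Krt18, Krt19 and Hand1 were called lower in Tas and higher in Pph, as 5.19% of all genes were, and 0 of the 10 were called the other way round, as 4.16% were; these genes were picked with that contrast in view.

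The direct contrast of Pph with Tas leaves out the WT mean, though the WT libraries enter the shared scaling and estimate of the spread. Of the 10 genes, 9 were called higher in Pph than in Tas and 0 lower (29.3% and 28.5% of all genes), and for these 9 the libraries did not overlap (32.0% of all genes lay apart and higher). Without Cdx2, which was tested only because of its level in Pph, these were 8 of 9. By edgeR's quasi-likelihood fit, Cdx2 differed by 4.22 ± 0.45 on the log2 scale, though Tas held 7 counts in all and the counting interval of the level ratio ran from 9.25 to 49.7. Krt7 differed 16.6-fold (4.06 ± 0.16), Hand1 14.6-fold (3.87 ± 0.11), Krt8 and Krt18 12.9-fold each (3.69 ± 0.04 and 3.69 ± 0.04) and Krt19 5.18-fold (2.37 ± 0.09). Tfap2c, lower than WT in each group, was also higher in Pph than in Tas, by 0.54 ± 0.07 (adjusted p = 1.60e-07). Gata3 was higher by 1.81 ± 0.26, Gata2 by 0.85 ± 0.21, and Eomes did not pass (0.05 ± 0.14, adjusted p = 0.806). On the log2(TPM + 1) scale the difference of Gata2 was 0.0047 and did not pass (limma adjusted p = 0.992).

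MP8 lay between Tas and Pph in mean level for Krt7, Krt8, Krt18, Hand1, Cdx2, Gata3 and Tfap2c. By the edgeR test, Krt7, Gata3 and Tfap2c did not pass in MP8 against Tas (adjusted p of 0.170, 0.0955 and 0.231). Against Tas, 5 of the 10 genes were higher in MP8 and 1, Krt19, was lower (27.7% and 28.4% of all genes). The largest differences were Cdx2 (2.37 ± 0.55, adjusted p = 0.000373), Hand1 (1.12 ± 0.15, adjusted p = 1.28e-07) and Gata2 (0.98 ± 0.20, adjusted p = 0.000154), the last of which turned sign on the log2(TPM + 1) scale (-0.055, limma adjusted p = 0.898). Against Pph, 8 of the 10 were lower in MP8 and 0 higher (31.4% and 27.4% of all genes), from Tfap2c (-0.43 ± 0.07) to Krt7 (-3.67 ± 0.15); the exceptions were Eomes and Gata2.

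Among 22 other genes of trophectoderm and trophoblast, 16 could be tested and 11 of these were higher in Pph with 0 lower (median 0.96), where 30.6% and 25.7% of all tested genes were. Esx1, a homeobox gene of the placenta, rose by 2.77 to 10.6 ± 0.317 CPM, and Plac1, a placental surface protein, rose by 2.55. Plac1 passed the filter through Pph, where its libraries held 1.20 to 2.03 CPM, and is counted among the 11. Bmp8b, a ligand of extraembryonic ectoderm, rose by 2.30 and Dlx3, a homeobox factor of the labyrinth, rose by 1.40. In Tas 5 of the 16 were lower and 1 higher (median -0.16; 25.5% and 26.2% of all genes), among the lower Peg10, an imprinted retrotransposon-derived placental gene (-1.33), Msx2 (-1.25) and Esx1 (-1.16). In MP8 4 were higher and 3 lower (median 0.07; 30.0% and 32.2% of all genes), with Tead4, the Hippo pathway factor that switches on Cdx2, down by 1.30. Under DESeq2 the counts were 9 higher in Pph, 5 lower and 0 higher in Tas, and 2 higher and 3 lower in MP8. Of the 6 genes that could not be tested, Tpbpa, Prl2c2 and Hsd3b6, genes of later trophoblast, were at 0 counts in all 12 libraries, and Elf5, which locks in trophoblast identity, was at a mean of 0.361 CPM in WT and 0.239 CPM in Pph.

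Epithelial adhesion and junction genes were called higher in Pph for 17 of 20 and lower for 1, Aqp3, a water channel of the blastocyst epithelium (-0.79), against 30.6% and 25.7% of all genes. The number lower was 2 with RLE size factors, with upper quartile scaling and under DESeq2. The desmosomal proteins Dsp and Dsc2 rose by 2.56 and 2.08, and Lgals3, a lectin, rose by 2.14. In Tas 6 were higher and 9 lower (26.2% and 25.5% of all genes), and in MP8 5 were higher and 10 lower (30.0% and 32.2%), with medians of -0.12 and -0.19. Here Dsg2, another desmosomal cadherin, fell by 0.84 and by 1.35. Plec, a linker of keratin filaments, rose by 0.77 in Pph and 0.15 in Tas and fell by 0.27 in MP8. Its Tas call was lost under upper quartile scaling (adjusted p = 0.0663). Plec was read among 9 other intermediate filament and linker genes, of which 6 were higher and 3 lower in Pph (30.6% and 25.7% of all genes). In Tas 5 were higher and 2 lower (26.2% and 25.5%), or 3 and 3 with upper quartile scaling. In MP8 2 were higher and 6 lower (30.0% and 32.2%).

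The Hippo and Notch pathways act upstream of Cdx2 and Gata3 in the embryo, and the 17 genes read for them include both components and known targets of YAP. Of these, 14 were higher and 2 lower in Pph (median 0.71; 30.6% and 25.7% of all genes). Tead4 is counted here and also among the other trophoblast genes above. In MP8 13 were higher and 3 lower (median 0.41; 30.0% and 32.2%), and in Tas 7 were higher and 4 lower (median 0.13; 26.2% and 25.5%). Ankrd1, a YAP target, rose by 4.86 in Pph and 2.46 in MP8 from 0.0628 CPM in WT. Only its Pph libraries (1.88 to 2.23 CPM) lay past the filter's cutoff, so Ankrd1 was tested because of the group in which it is high. It is counted among the 14. Lats2, a Hippo kinase that is itself induced by YAP, rose by 2.21, 1.35 and 0.94 in Pph, MP8 and Tas. Ccn1, a matrix protein induced by YAP, rose by 2.17, 1.23 and 0.51. Ccn2, its relative, rose most in MP8 (1.86) and less in Tas (0.78); its call in Pph was lost under upper quartile scaling (adjusted p = 0.0695) and under DESeq2 (0.0998). The coactivator Wwtr1 rose by 0.58 in Pph and 0.41 in MP8 and fell by 0.40 in Tas.

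Known repressors of trophectoderm genes in ES cells were called lower on counts in Pph for 7 of 7, with small changes. Of all genes, 25.7% were called lower. Nanog fell by 0.75, Pou5f1 by 0.41, Sox2 by 0.32, Sall4 by 0.23, Mbd3 by 0.18, Dnmt1 by 0.12 and Setdb1 by 0.09 on the log2 scale. In MP8, Sox2, Nanog, Dnmt1 and Pou5f1 were lower (0.41, 0.35, 0.20 and 0.08) and 0 were higher. In Tas, Mbd3, Nanog and Sox2 were lower, by 0.38, 0.27 and 0.21, while Dnmt1 was higher by 0.17 and Setdb1 by 0.11, the latter lost under upper quartile scaling (adjusted p = 0.120). Pou5f1 in Tas, at 963 CPM, did not pass. Pou5f1, Sox2 and Nanog are also counted among the ES cell markers above.

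**Figure D4:**
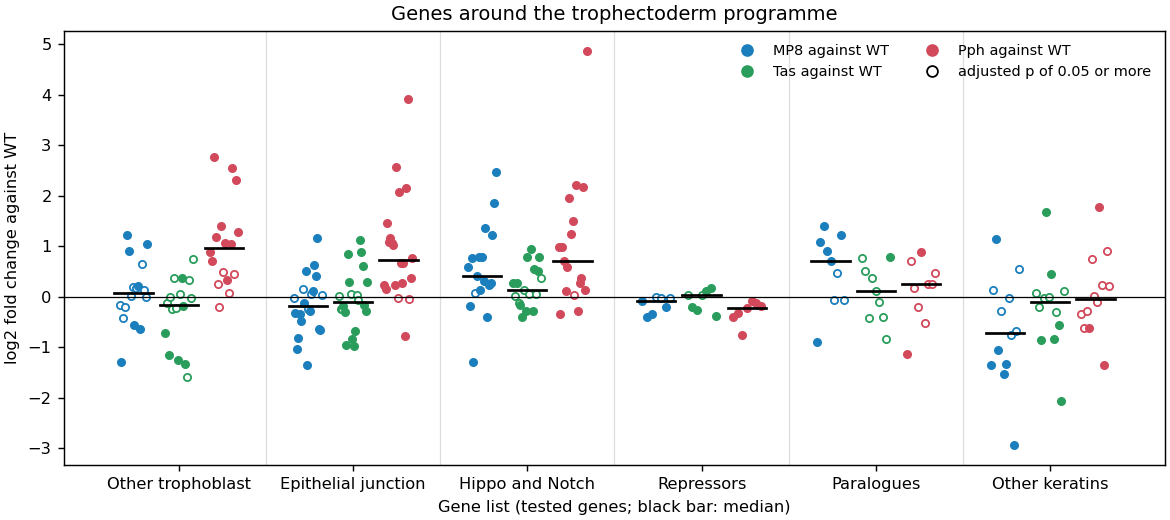
Log2 fold change against WT of the tested genes of 6 lists, 1 dot per gene and comparison, open where the adjusted p was 0.05 or more, with the list median as a black bar. In Pph the medians of the other trophoblast, epithelial junction and Hippo and Notch lists are 0.96, 0.72 and 0.71, and that of the repressors is -0.23.

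Of 46 other keratin symbols, 12 genes were tested, and in Pph 1 was higher and 2 lower (30.6% and 25.7% of all genes). The number lower was 1 under DESeq2, 3 with RLE size factors and 4 with upper quartile scaling. Krt20, a type I keratin of gut and bladder epithelium, rose by 1.78 to 10.4 ± 0.0542 CPM in Pph and fell by 0.85 in Tas. Krt42, at 37.1 CPM in WT, fell by 1.36 in Pph, 2.94 in MP8 and 0.56 in Tas. Krt17, at 37.0 CPM in WT, fell by 1.34 in MP8, rose by 0.44 in Tas and stood at 34.2 CPM in Pph. Krt13 was lower in Pph by 0.62, a call lost under DESeq2 (adjusted p = 0.0715), and in MP8 by 1.05. Krt9 and Krt16 fell in MP8 by 1.36 and 1.52, and Krt12 rose there by 1.14 and fell by 0.86 in Tas. In Tas, Krt14 rose by 1.67, from a low mean of 0.459 CPM in WT to 1.47. Krt80 fell there by 2.07, from 0.444 CPM in WT to 0.103. Krt80 was also higher in Pph than in Tas (2.96, adjusted p = 3.30e-05), but it passed the filter through Pph. Krt10, Krt28 and Krt222 were called in none of the comparisons with WT.

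Among 14 paralogues of the 6 factors, 9 were tested. Tfap2e was higher in Pph (0.88) and MP8 (0.71), Gata1 was lower in both (-1.14 and -0.90), and Gata4, Gata6, Tfap2a and T were higher in MP8, by 0.90 to 1.40 and at means of 0.855 to 1.55 CPM, without passing in Tas or Pph; under DESeq2 the MP8 calls of T, Tfap2a and Gata1 were lost, as was the rise of Tbx21 in Tas (0.79). Gata6 and T passed the filter through MP8, the group in which they are high. Tfap2b was at 0 counts, and Hand2, Gata5 and Tfap2d stayed at or below a mean of 0.143 CPM. The 2 nearest protein-coding genes on each side of each of the 10, 36 genes in all after leaving out the 10 themselves, were looked up after the values had been seen. Of the 20 that could be tested, 4 were higher and 6 lower in Pph, with log2 fold changes of -0.62 to 0.89 (30.6% and 25.7% of all genes). In Tas 4 were higher and 9 lower (-2.07 to 1.67; 26.2% and 25.5% of all genes), and in Pph against Tas 11 were higher and 4 lower (-0.92 to 2.96; 29.3% and 28.5%). Krt80, a neighbour of Krt7, gave both the -2.07 and the 2.96. It passed the filter through Pph, the group in which it is high, and is counted among the 9 and the 11. Beside Krt18, Eif4b, a translation factor gene, stood at a mean of 864 CPM in the WT libraries against 792 CPM in those of Pph, and Tns2 at 11.7 against 14.4 CPM. The annotated genes that overlap Krt7, Krt8, Eomes or Gata3 reached a mean of at most 0.0672 CPM in any group; whether the authors counted by strand is not given in the sources used here.

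Markers of other cell types that express some of the 10 genes were read beside them, and their part in the results was not tested. The summed level of 12 fibroblast markers was 18.8 to 19.2 CPM in WT, 28.9 to 32.9 in MP8, 14.4 to 17.6 in Tas and 52.3 to 54.0 in Pph. Of the 8 tested, 7 were higher in Pph (30.6% of all genes) with a median of 2.07, and 6 were under DESeq2. Col1a1 reached 19.1 CPM in Pph. In MP8 4 were higher (30.0% of all genes, median 0.49), and in Tas 3 were lower (25.5%, median -0.26). The collagens Col1a2 and Col3a1 rose by 2.27 and 3.54 in Pph and fell by 2.57 and 1.47 in Tas, while Lum, Postn and Prrx1 stayed at or below a mean of 0.135 CPM. For 13 markers of primitive and parietal endoderm, which also carry Krt8 and Krt18, the sums were 1073 to 1154, 1055 to 1075, 1248 to 1269 and 1832 to 1890 CPM in the same order. Of the 11 tested, 8 were higher in Pph and 0 lower (30.6% and 25.7% of all genes). In MP8 7 were higher and 3 lower (30.0% and 32.2%), and in Tas 5 were higher and 0 lower (26.2% and 25.5%). The rises in Pph included 6 matrix genes, with Col4a2 (2.74) and Col4a1 (2.03) the largest, the receptor Pdgfra (1.07) and the adaptor Dab2 (0.77), while Gata6 and Sox17 stood at 0.414 and 0.159 CPM. For 8 primitive streak and mesoderm markers the sums were 27.8 to 29.3, 28.8 to 29.7, 6.60 to 8.16 and 13.9 to 14.9 CPM, most of it Kdr, and T, Mixl1 and Gsc stood at 0.430, 1.03 and 0.483 CPM in Pph. Surface ectoderm markers summed to 61.2 to 63.5, 93.0 to 94.2, 65.1 to 68.8 and 89.3 to 92.7 CPM, with Krt5 and Trp63 at or below a mean of 0.189 CPM. Primordial germ cell markers, read beside Tfap2c, summed to 221 to 236, 159 to 169, 195 to 200 and 182 to 200 CPM. Of the 7 tested, 1 was higher in Pph, Ddx4 (0.50), and 4 were lower (30.6% and 25.7% of all genes). In MP8 0 were higher and 6 lower (30.0% and 32.2%). In Tas 1 was higher, Prdm1 (0.75), and 2 were lower (26.2% and 25.5%). Under DESeq2, 5 were lower in Pph and 5 in MP8. Dppa3, also read as an ES cell marker, was lower in the 3 null groups. Blood markers summed to at most 7.36 CPM in any library, and neuroectoderm markers to between 207 and 264 CPM.

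The genes with the most similar pattern were ranked over 12921 named genes of at least 1 CPM. The rank used the root-mean-square difference of the 4 group means of log2 CPM, each gene centred on its own mean. A prior count of 2 was added before the log. For Krt8 the near genes included Slco2a1, a prostaglandin transporter (0.19), Anxa1, an annexin (0.21), Igf2, an imprinted growth factor (0.21) and Esx1 (0.25), against 0.03 for Krt18 and 0.19 for Hand1. Igf2 stood at 34.2, 51.1, 22.3 and 281 CPM in WT, MP8, Tas and Pph. For Cdx2 the nearest were Vgf (0.10), Thbs1 (0.14), Acta1 (0.19), Tmprss2 (0.21) and Flnc (0.21). Cdx2 held 4 to 6 counts per library in WT and 1 to 4 in Tas. The prior count therefore narrows its pattern, and its distances and nearest genes depend on that setting. Thbs1, a matrix glycoprotein, stood at 10.1, 22.9, 5.13 and 70.1 CPM. For Tfap2c they were Scn3a (0.05), Tns3 (0.06), H1f10 (0.07), Cds1 (0.11) and Spon1 (0.12); Tns3, a focal adhesion protein, stood at 203, 80.7, 82.7 and 115 CPM.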

How the data were processed

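Symbols and values came from 3 deposited tables, each of 1 null group with WT. Per the file headers, each library had expected counts (estimated reads per gene, not normalized) and TPM, and the authors gave a fold change as a ratio, its log2, a p-value and an adjusted p-value. RSEM, HISAT2 2.1.0, DESeq 1.26.0, FastQC and the build GRCm39 are named, without role or order, in the submitters' processing notes. The WT values of the 3 tables differed by at most 0, so WT entered once.

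After rounding of the expected counts to integers, edgeR 4.0.16 (R 4.3.3) gave the main test (filterByExpr, TMM, robust quasi-likelihood fit of group means over 12 libraries, 8 residual degrees of freedom). The 6 contrasts were tested, with Benjamini-Hochberg adjustment over 16840 genes each and a threshold of 0.05. Levels are CPM on effective library sizes; SE are those of the fit. The fit was tested on simulated counts. Alternatives included DESeq2 1.42.0 and limma 3.58.1 on log2(TPM + 1). Counting intervals are exact (Clopper-Pearson) and cover counting error only.

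The members and the gene lists were chosen with earlier results of these data known. Some genes belong to several lists, so the counts of the lists are not independent. Named were the 10 genes, up to 4 called members per list and comparison, all repressors, the tested keratins and the 5 nearest patterns to Krt8, Tfap2c and Cdx2; other list, marker and neighbour genes were named after their values were seen. Some genes that this rule names are not reported here.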

Additional observations from a re-analysis of the deposited data

How the results depend on the processing

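Each of the 60 fold changes (10 genes, 6 comparisons) was recomputed under 20 other settings. Direction and side of the threshold were kept in 1169 of 1197 values, 15 lost their call, 1 gained it (Gata3 in MP8 against Tas without MP8 replicate 1, adjusted p = 0.0498) and 12 turned sign. Cdx2 gave no value in 3 comparisons fitted on their own 2 groups, where it failed the filter. Of those that turned, 11 had no call in the first place. With limma on log2(TPM + 1) these were Eomes in MP8 against WT (0.033), Pph against WT (0.048) and MP8 against Pph (-0.015), Krt7 in MP8 against Tas (-0.0060) and Gata2 in MP8 against Pph (-0.060); the called value that turned there was Gata2 in MP8 against Tas (-0.055). Leaving out single libraries moved Eomes between -0.13 and 0.048 in MP8 against WT, between -0.086 and 0.17 in Pph against Tas and between -0.022 and 0.22 in MP8 against Pph, and Gata2 between -0.063 and 0.24 in MP8 against Pph. On the log2(TPM + 1) scale fewer genes were called lower in MP8 (3419), Tas (2667) and Pph (1905) against WT and in Pph against Tas (2713); the cause was not tested. In CPM, which is not per length, the Krt8 to Krt18 ratio was 1.45, 1.46, 1.51 and 1.51 for WT, MP8, Tas and Pph. With a replicate block, 9, 6 and 9 of the 10 genes were called in MP8, Tas and Pph, and no call of the 10 changed; 0 of 18 same-numbered pairs correlated above 0.1. The authors' deposited table gave the same directions for the 10 genes and called 9 in Pph, with adjusted p of 0.312 for Hand1 in Tas and 0.140 and 0.112 for Cdx2 and Gata3 in MP8. Depth limits Cdx2 most, at 1 to 6 counts per library in WT and Tas.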
